A study of Oryza sativa Japonica Group with 18 samples.

Results

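Cytochrome P450 genes outside the CYP76M, CYP99A, CYP701A and CYP73A families were followed in rice roots deprived of K+. A gene was a member when its symbol or a synonym in the probe annotation had the form CYP, family number, letter and number. This gave 29 genes, of which 20 had a probe set in the tables used, out of 17905 genes with a probe set of their own in the whole series. CYP707A7, CYP714B1, CYP714B2, CYP734A2, CYP734A5, CYP78A11, CYP90A3, CYP90B2 and CYP90D2 were not analysed here. Each gene was read from its strongest probe set, by the mean over all arrays, and only 3 genes had more than 1. The names of this annotation cover a small, mostly hormone-related share of the large rice P450 superfamily, so the members do not stand for the superfamily.

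Roots came from 2-week-old hydroponic seedlings of Oryza sativa ssp. japonica cultivar Nipponbare, the single cultivar of the study. CK seedlings were given K+-replete solution with 1 mM K+, and LK seedlings the same solution with the potassium sulphate left out, so the LK solution also held less sulphate. Roots were taken after 6 h, 3 d and 5 d, with 3 biological replicates in each of the 6 groups and 18 Affymetrix Rice Genome Arrays in all. RNA of 5 seedlings was pooled for each array, so the spread between arrays is a spread between pools, and each time had CK arrays of its own.

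P450s are haem proteins that usually insert an atom of oxygen from O2 into a small molecule, with electrons delivered by a partner reductase. In plants they carry out steps of gibberellin, brassinosteroid and jasmonate synthesis and of abscisic acid (ABA) and brassinosteroid breakdown, as well as steps in making defence compounds. The CYP74 family is atypical: its enzymes rearrange a fatty acid hydroperoxide and need neither O2 nor a reductase.

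The table holds normalized signals from dChip on a linear scale, in arbitrary units that may be compared between arrays for a gene and not between genes. Of the 20 members, 17 were among the 25165 most strongly read probe sets and were tested. CYP703A3, CYP71Z6 and CYP74A3 were not, and read between 1.03 and 13.2 units over all arrays. CYP703A3 is a fatty acid hydroxylase known from rice anthers, CYP71Z6 a diterpenoid hydroxylase and CYP74A3 an annotated allene oxide synthase. Fold changes are ratios of mean signals, negative where the first group was lower. The log2 fold changes, their standard errors (SE), their 95% intervals and adjusted p values come from a limma fit of all groups, with the Benjamini-Hochberg adjustment over all probe sets tested. A change was called at an adjusted p under 0.05, and n = 3 arrays a group throughout.

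Array medians lay between 22.1 and 23.4 units, and arrays of a group correlated at 0.991 to 0.995 over the log2 signals of all 57194 probe sets. Roots were checked with named markers. The root silicon transporters Lsi1 and Lsi2 read at least 3654 units on every array, and RBCS1, a small subunit of Rubisco, read at most 8.44. Transcripts of green tissue were nevertheless present: OsrbcS, another small subunit, read 50.8 to 820, and the chlorophyll-binding protein genes CAB2R, RCABP69 and RCABP89 read 1773 to 4579, 190 to 1490 and 61.0 to 980. Of the shoot markers, 4 of the 6 listed were tested, and 0 were called between LK and CK at 6 h, 0 at 3 d and 2, both higher, at 5 d: OsrbcS (4.23-fold, adjusted p = 0.010) and RCABP69 (1.44-fold, adjusted p = 0.047). Their probe sets are of the x_at and s_at types, which may bind other transcripts. OsrbcS had 4 probe sets, of which only the strongest was read, and it spread from 257 to 820 in LK at 5 d. The summed level of the 5 shoot markers with a probe set, in which CAB2R has the largest part, was 2883 to 3530 in LK against 2139 to 2921 in CK at 6 h, 5085 to 6483 against 4454 to 6295 at 3 d, and 6657 to 7872 against 5452 to 6286 at 5 d. Of the 7 root markers measured of 9 listed, 5 were lower at 3 d, and at 5 d 4 were lower and 1 higher; most of them are nutrient transporter or iron acquisition genes. Their summed level at 3 d, mostly that of Lsi1 and Lsi2, was 9275 to 9981 in LK against 10372 to 11547 in CK. The clock gene OsCCA1 was higher in LK at 6 h, with 173, 193 and 171 against 126, 136 and 127 in CK (1.38-fold, adjusted p = 0.0049), and was not called at 3 d or 5 d. The part of these genes in the P450 results was not tested.

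Between LK and CK roots, 5 of the 17 members tested were called at 1 or more times, beside 28.1% of all probe sets. At 6 h 0 of 17 members were called, against 0.529% of all probe sets tested, and 2 members had an unadjusted limma p under 0.05. At 3 d 3 of 17 were called, 2 higher and 1 lower, against 14.3% of all probe sets (8.5% higher and 5.75% lower). At 5 d 5 of 17 were called, 2 higher and 3 lower, against 23.3% (10.5% higher and 12.8% lower). The members' share lay near that of all probe sets at both times. The LK and CK arrays did not overlap for 3 members at 6 h, 4 at 3 d and 7 at 5 d, beside 13.2%, 29.6% and 42% of all probe sets. The gibberellin synthesis gene CYP88A5 and the ABA catabolism gene CYP707A6 were up-regulated at 3 d and 5 d. CYP74A4, annotated as an allene oxide synthase gene, was down-regulated at both times, and the brassinosteroid synthesis genes CYP90A4 and CYP724B1 at 5 d. Called at both 3 d and 5 d in the same direction were 3 of 17 members, beside 9.35% of all probe sets tested. Called at no time were 12 of the 17 members. The median log2 fold change of the members was −0.06, 0.07 and −0.07 at 6 h, 3 d and 5 d, beside −0.00, 0.04 and −0.03 over all probe sets. The median size of the change, without its sign, was 0.12, 0.18 and 0.22, beside 0.08, 0.13 and 0.16.

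**Figure D1:**
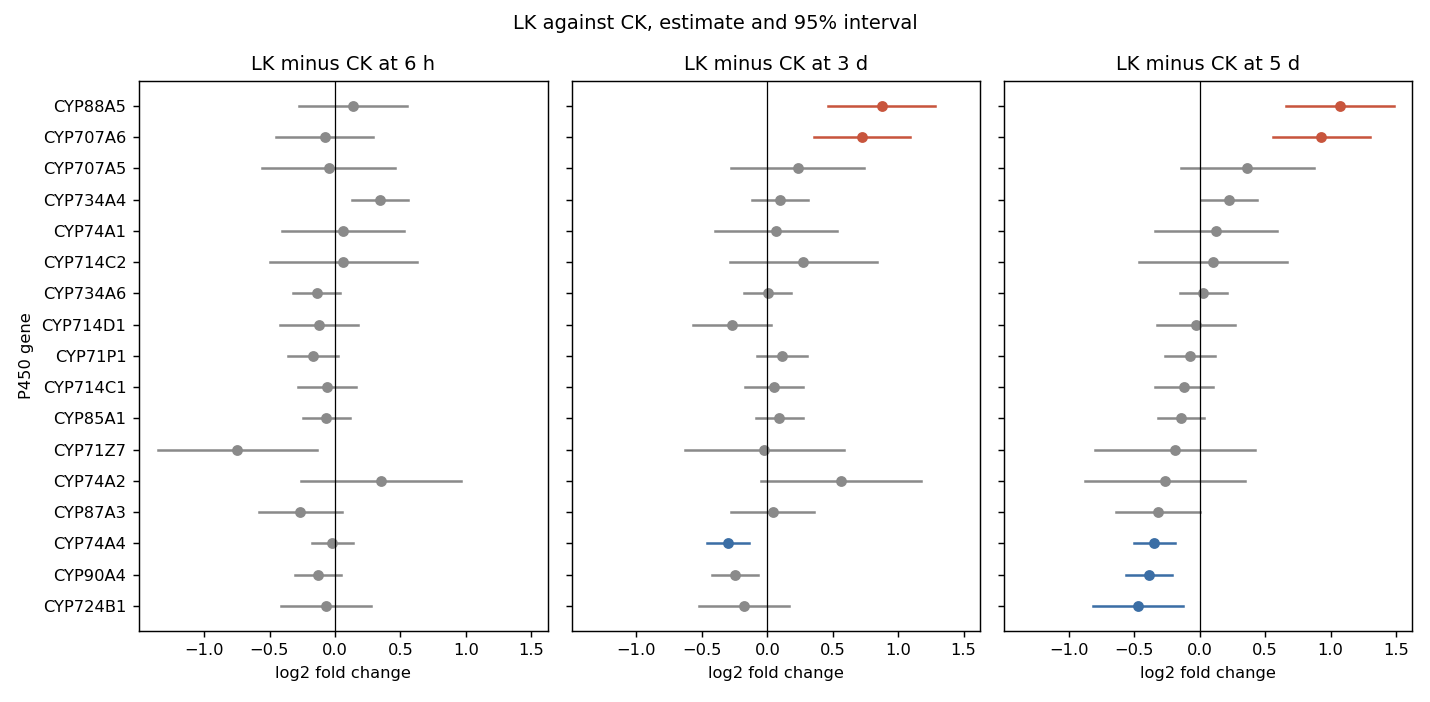
Log2 fold change of LK against CK roots (x axis) for the 17 P450 members tested (y axis) at 6 h, 3 d and 5 d, with 95% intervals as lines. Red marks members called higher, blue those called lower and grey the rest: 0 members are coloured at 6 h, 3 at 3 d and 5 at 5 d.

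CYP88A5 encodes ent-kaurenoic acid oxidase (KAO), which makes the first gibberellin of the pathway from ent-kaurenoic acid. Its signal was 65.0, 86.4 and 81.7 on the CK arrays and 70.2, 83.2 and 105 on the LK arrays at 6 h. At 3 d it was 105, 91.3 and 96.5 in CK and 157, 214 and 169 in LK. At 5 d it was 134, 190 and 116 in CK and 231, 327 and 363 in LK. The groups overlapped at 6 h, and at both later times every LK array stood above every CK array. LK roots had 1.84-fold more at 3 d, a log2 fold change of 0.87 (SE 0.20, adjusted p = 0.0059), and 2.09-fold more at 5 d, a log2 fold change of 1.07 (SE 0.20, adjusted p = 0.00068). In whole roots, a change in the number of cells of a type and a change in RNA per cell cannot be told apart. The 5 d arrays spread more widely than the earlier ones, with SDs of 38.7 in CK and 68.4 in LK. The lowest LK array at 5 d was still above the highest CK array of any time.

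Known rice members of the CYP714 family act on gibberellins downstream of KAO. CYP714D1, known as EUI (ELONGATED UPPERMOST INTERNODE), inactivates gibberellins by epoxidation. It read 92.3, 96.6 and 108 in CK and 88.4, 64.6 and 96.5 in LK at 3 d, and its log2 fold change there was −0.27 (95% interval −0.57 to 0.03, adjusted p = 0.23). At 5 d the difference was −0.03, with an interval from −0.32 to 0.27. CYP714C1 and CYP714C2 lie next to each other on chromosome 12, with no protein-coding gene between them in the RefSeq annotation. CYP714C1 read 59.97 to 86.3 over all arrays and CYP714C2 21.1 to 59.5, and neither was called at any time. A further, weaker probe set of CYP714C2 read 32.5 to 49.9 and was not called either. Of the gibberellin-related members tested, 1 of 4 was called at 1 or more times, near the 28.1% of all probe sets.

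CYP707A5 and CYP707A6 are ABA 8'-hydroxylases, named ABA8ox1 and ABA8ox2, which start the breakdown of ABA to phaseic acid. CYP707A6 read 33.8, 43.7 and 40.8 in CK and 33.6, 51.2 and 29.6 in LK at 6 h, where the groups overlapped. At 3 d it read 28.7, 37.8 and 36.0 in CK and 60.1, 58.3 and 50.5 in LK. At 5 d it read 36.7, 39.6 and 36.8 in CK and 68.9, 81.4 and 66.1 in LK. All LK arrays were above all CK arrays at 3 d and 5 d, while the CK level stayed within 28.7 to 43.7 over all times. The increase was 1.65-fold at 3 d (log2 fold change 0.73, SE 0.17, adjusted p = 0.0094) and 1.91-fold at 5 d (0.93, SE 0.17, adjusted p = 0.00088). This probe set is of the s_at type and may bind more than 1 transcript, so the signal need not be of CYP707A6 alone. All CK signals were under 50 units. With signals under 50 raised to 50, the 3 d change shrank to a log2 fold change of 0.17 (adjusted p = 0.13) and the 5 d change to 0.52, which was still called.

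CYP707A5 read 348, 553 and 704.3 in CK and 368, 502 and 663 in LK at 6 h. It read 830, 911 and 1016 in CK and 932, 1091 and 1225 in LK at 3 d, and 666, 484 and 798 in CK and 665, 855 and 966 in LK at 5 d. The groups overlapped at every time. Its log2 fold change came to 0.23 after 3 d and 0.36 after 5 d, with 95% intervals from −0.27 to 0.74 and from −0.14 to 0.87 (adjusted p = 0.57 and 0.30). These intervals include no change as well as increases close to that of CYP707A6, and the difference between both genes was not tested.

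**Figure D2:**
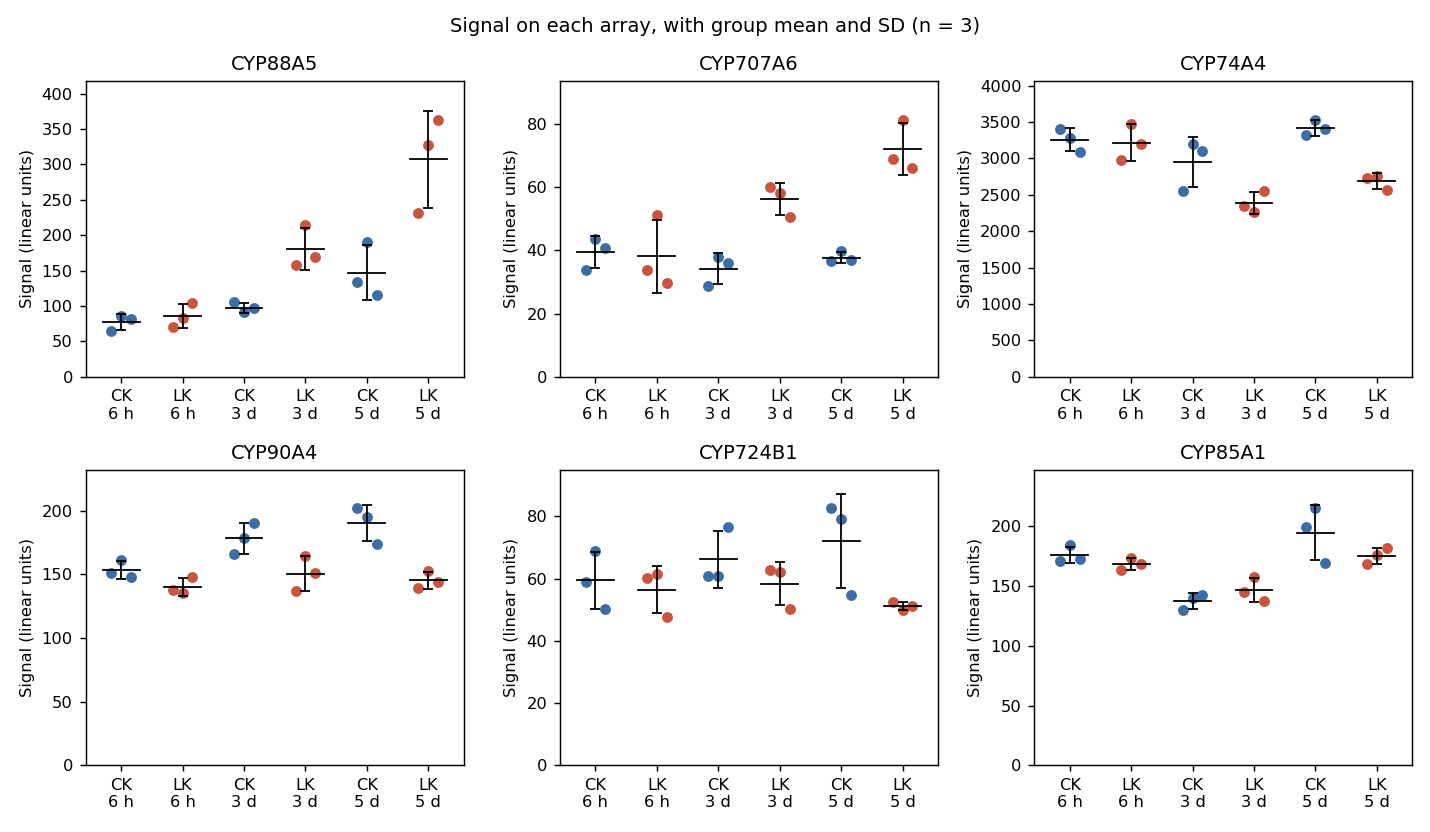
Signal in linear units (y axis) on each of 18 arrays for 6 P450 genes, by group (x axis), with CK in blue and LK in red, and the mean and SD of 3 arrays in black. CYP88A5 and CYP707A6 stand higher and CYP74A4 lower in LK at 3 d and 5 d, CYP90A4 and CYP724B1 lower in LK at 5 d, and CYP85A1 lower in CK at 3 d than at 6 h or 5 d.

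Brassinosteroid genes were divided between synthesis and inactivation. CYP90A4, annotated as CPD2, was counted among the synthesis genes. Its signal was 151, 161 and 148 in CK and 138, 135 and 148 in LK at 6 h, 166, 178 and 190 in CK and 137, 164 and 151 in LK at 3 d, and 202, 195 and 174 in CK and 139, 153 and 144 in LK at 5 d. LK arrays were all below the CK arrays at 3 d and 5 d. The 3 d ratio of −1.18-fold was not called (log2 fold change −0.24, SE 0.08, adjusted p = 0.061). It was called with quantile normalization (adjusted p = 0.016) and without the first CK array (0.049) or the second LK array (0.035) of 3 d. At 5 d the gene was down-regulated −1.31-fold (log2 fold change −0.39, SE 0.08, adjusted p = 0.0027).

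CYP724B1 is DWARF11 (D11), a synthesis enzyme whose loss gives dwarf rice plants with small round grains. It read 82.6, 79.0 and 54.7 in CK and 52.5, 49.8 and 51.03 in LK at 5 d. The third CK array lay close to the LK arrays and well below the other CK arrays. The change was −1.41-fold (log2 fold change −0.47, SE 0.16, adjusted p = 0.044). The call was not firm: it was lost in 10 of 27 alternative settings, with adjusted p up to 0.19, and the decrease was larger (log2 fold change −0.66, adjusted p = 0.0062) without the third CK array. Its probe set is of the x_at type, which may bind other transcripts.

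CYP85A1, the brassinosteroid C-6 oxidase also called OsDWARF or BRD1, makes castasterone near the end of the pathway. It read 199, 215 and 169 in CK and 168, 176 and 182 in LK at 5 d. The groups overlapped, and the log2 fold change of −0.14 had an interval from −0.32 to 0.03 (adjusted p = 0.24). Without the third CK array it was −0.24 and called (adjusted p = 0.040). Of the synthesis genes tested, 2 of 3 were thus called lower at 5 d, beside 12.8% of all probe sets, and the call of CYP724B1 among them depends on the setting.

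CYP734A4 and CYP734A6 belong to a family that inactivates brassinosteroids by oxidizing the side chain. CYP734A4 read 44.2, 52.9 and 43.7 in CK and 54.7, 61.0 and 63.0 in LK at 6 h, and 61.6, 60.6 and 67.9 in CK and 69.0, 73.1 and 79.7 in LK at 5 d. LK arrays were above all CK arrays at both times. Neither difference was called (log2 fold change 0.35, adjusted p = 0.18 at 6 h; 0.22, adjusted p = 0.13 at 5 d), and at 3 d the groups overlapped. With signals under 50 raised to 50, CYP734A4 was called at 5 d (adjusted p = 0.034). CYP734A6 stayed between 88.8 and 108 on all arrays, and its log2 fold change was 0.03 at 5 d (95% interval −0.15 to 0.21).

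Allene oxide synthases turn a hydroperoxide of linolenic acid into the unstable oxide from which jasmonate is made. CYP74A4, annotated as AOS4, lies beside CYP74A3 on chromosome 2, and its enzyme activity is taken here from that name alone. Its signal was 3397, 3284 and 3090 in CK and 2973, 3477 and 3196 in LK at 6 h, where the groups overlapped. At 3 d it was 2556, 3194 and 3101 in CK and 2342, 2267 and 2554 in LK, with the lowest CK array barely above the highest LK array. At 5 d it was 3319, 3533 and 3399 in CK and 2733, 2760 and 2563 in LK, a clear gap. The decrease was −1.24-fold at 3 d (log2 fold change −0.30, SE 0.07, adjusted p = 0.012) and −1.27-fold at 5 d (−0.35, SE 0.07, adjusted p = 0.0026). The 3 d call was lost in 4 of 29 settings, among them without the second CK array (adjusted p = 0.064) and without the second LK array (adjusted p = 0.053); the 5 d call was lost in 0 of 29.

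CYP74A1 and CYP74A2, annotated as AOS1 and AOS2, were not called at any time. CYP74A1 read 577, 492 and 728 in CK and 489, 701 and 781 in LK at 5 d, and its log2 fold change was 0.12 with an interval from −0.34 to 0.59. CYP74A2 read 82.2, 104 and 125 in CK and 106, 145 and 224 in LK at 3 d, and 121, 68.9 and 138 in CK and 71.4, 102 and 91.8 in LK at 5 d. The groups overlapped at both times, and its log2 differences of 0.56 after 3 d and −0.26 after 5 d had opposite signs and wide intervals (−0.05 to 1.17 and −0.87 to 0.35). The difference between these effects was not called (adjusted p = 0.44). For CYP74A1, CYP74A2 and CYP707A5 much of the spread within groups went with the replicate number. The array numbered 3 was the highest of its group in 6 of 6 groups for CYP74A1 and CYP707A5 and in 5 of 6 for CYP74A2, and the array numbered 1 was the lowest in 5 of 6 groups for each of them.

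**Figure D3:**
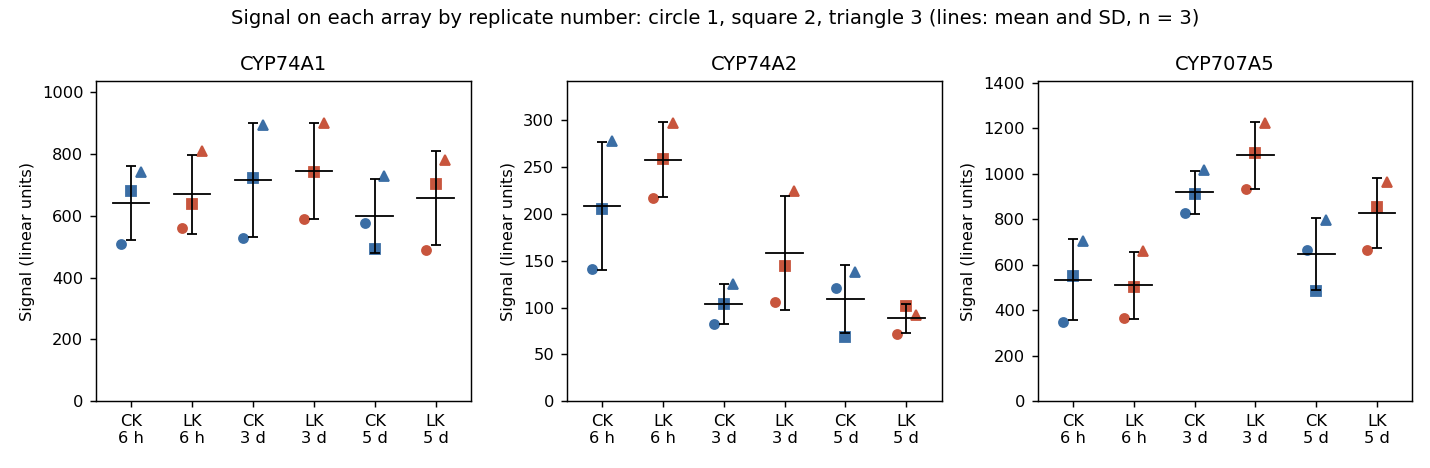
Signal in linear units (y axis) of CYP74A1, CYP74A2 and CYP707A5 on each array by group (x axis), with CK in blue and LK in red, replicate number by symbol, and the mean and SD of 3 arrays in black. The array numbered 3 is the highest in 6 of 6 groups for CYP74A1 and CYP707A5 and in 5 of 6 for CYP74A2.

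The other members act in defence or have less defined roles. CYP71P1 is tryptamine 5-hydroxylase, which makes serotonin and is the gene of the Sekiguchi lesion (SL) mutant. It read 764, 762 and 817 in CK and 665, 756 and 670 in LK at 6 h. The LK arrays were all below the CK arrays, though by little, and the log2 fold change of −0.17 was not called (adjusted p = 0.62). At 3 d and 5 d the log2 fold changes were 0.11 and −0.07, with adjusted p of 0.45 and 0.60. A further probe set of CYP71P1 read only 1 to 6.46 units over all arrays and was not tested.

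CYP71Z7 hydroxylates a diterpene on the way to the phytocassane phytoalexins. It read 508, 424 and 932 in CK and 374, 455 and 251 in LK at 6 h. The groups overlapped, since the second LK array exceeded the second CK array. The log2 fold change of −0.74 was the largest of the 17 in size at that time, but its interval ran from −1.35 to −0.14 and it was not called (adjusted p = 0.39). At 3 d and 5 d the log2 fold changes were −0.02 and −0.19, with intervals from −0.63 to 0.59 and from −0.80 to 0.42.

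CYP87A3, known from rice coleoptiles as an auxin-responsive gene, read 227, 213 and 195 in CK and 168, 162 and 179 in LK at 5 d. All LK arrays were below the CK arrays, and the log2 fold change of −0.32 was not called (95% interval −0.64 to 0.00, adjusted p = 0.15). It was called when only the 5 d arrays were fitted (adjusted p = 0.021).

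Whether the K+ effect differed between times was tested directly. Between 6 h and 3 d 0 of 17 members were called, against 2.88% of all probe sets, and 4 had an unadjusted limma p under 0.05. The smallest adjusted p was that of CYP707A6 (difference of log2 fold changes 0.80, SE 0.25, adjusted p = 0.096), which was called without the second LK array of 6 h (adjusted p = 0.012). For CYP88A5 the difference was 0.74 (SE 0.28, adjusted p = 0.19) and for CYP74A4 −0.28 (SE 0.11, adjusted p = 0.19). Between 3 d and 5 d 0 of 17 were called against 1.03%, and 0 had an unadjusted limma p under 0.05. Calls at the later times and none at 6 h therefore do not show, at this number of arrays, that these effects grew with time.

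Control roots were also compared between times. From 6 h to 3 d 6 of 17 members were called in CK, 2 higher and 4 lower, against 15.1% of all probe sets, 5.91% higher and 9.18% lower. Arrays of both times did not overlap for 8 members, beside 28.1% of all probe sets. CYP71Z7 fell from 508, 424 and 932 at 6 h to 165, 232 and 153 at 3 d, with no overlap, a −3.38-fold change (log2 fold change −1.70, SE 0.29, adjusted p = 0.00057). CYP71P1 fell from 764, 762 and 817 to 505, 460 and 424 (−1.69-fold, log2 fold change −0.76, SE 0.09, adjusted p = 1.5e-05). Both stayed at the lower level at 5 d, where CYP71Z7 read 147, 145 and 198 in CK and CYP71P1 495, 551 and 546.

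CYP74A2 fell from 141, 205 and 277 to 82.2, 104 and 125 (−2.00-fold, adjusted p = 0.031). CYP85A1 fell from 171, 184 and 173 to 130, 140 and 143 (−1.28-fold, adjusted p = 0.0075). Its groups did not overlap, and neither did those of CYP74A2. CYP734A4, which inactivates brassinosteroids, rose from 44.2, 52.9 and 43.7 to 74.7, 69.7 and 76.1 (1.57-fold, adjusted p = 0.00026), and CYP707A5 rose from 348, 553 and 704.3 to 830, 911 and 1016 (1.72-fold, adjusted p = 0.025). The calls of CYP74A2 and CYP707A5, the members with large differences between replicate numbers, were lost in 6 and 5 of 27 settings. For CYP74A2 these included leaving out CK replicate 2 or 3 of 6 h or CK replicate 1 or 2 of 3 d (adjusted p up to 0.12). For CYP707A5 they included leaving out CK replicate 1 of 6 h (log2 fold change 0.55 in place of 0.83, adjusted p = 0.13) or CK replicate 2 or 3 of 3 d (adjusted p = 0.060 and 0.082).

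From 3 d to 5 d in CK, 1 of 17 members was called, against 9.2% of all probe sets, and the arrays did not overlap for 5 members, beside 27.9%. CYP85A1 rose from 130, 140 and 143 to 199, 215 and 169 (1.41-fold, log2 fold change 0.49, SE 0.08, adjusted p = 0.0026); its CK arrays at 6 h had read 171 to 184. CYP88A5 read 105, 91.3 and 96.5 at 3 d and 134, 190 and 116 at 5 d in CK, without overlap and without a call (log2 fold change 0.56, adjusted p = 0.081); without the third CK array of 5 d it was called (adjusted p = 0.037). CYP74A4 had a ratio of 1.16 and was not called (adjusted p = 0.075), except without the second CK array of 3 d (adjusted p = 0.047).

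**Figure D4:**
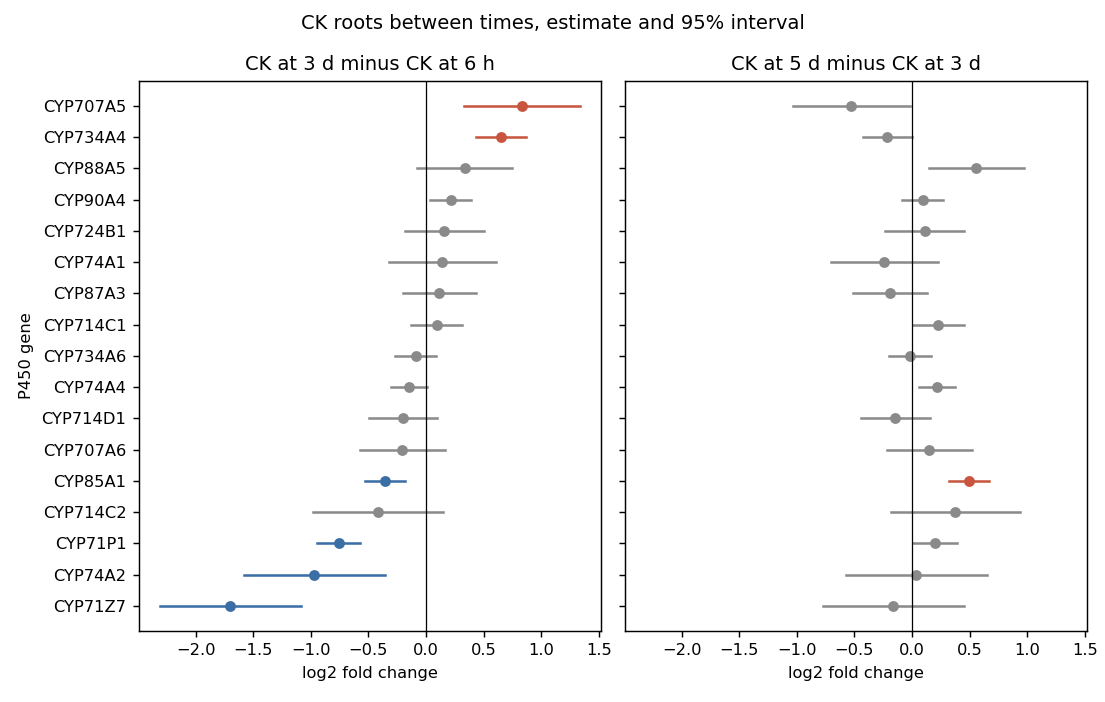
Log2 fold change between times in CK roots (x axis) for the 17 P450 members tested (y axis), with 95% intervals as lines, for 3 d against 6 h and for 5 d against 3 d. Red marks members called higher and blue those called lower: 6 are coloured from 6 h to 3 d, with CYP71Z7 the lowest, and CYP85A1 alone from 3 d to 5 d.

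Between times, plant age, hour of day and days since transfer cannot be told apart, because each time is a harvest of its own. Other values moved with these changes. The clock gene OsCCA1 read 126, 136 and 127 in CK at 6 h, 730, 800 and 812 at 3 d and 1270, 1262 and 1129 at 5 d. Of the 4 shoot markers tested, 3 were called higher in CK from 6 h to 3 d, when the summed level of all 5 went from 2139 to 2921 up to 4454 to 6295, while that of the root markers was 10579 to 11339 and 10372 to 11547. Their part in the P450 changes was not tested.

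For comparison, the P450 families left out of the set were read in the same way. These are CYP76M and CYP99A, which act in diterpenoid phytoalexin synthesis, and CYP701A, which includes the ent-kaurene oxidase that precedes KAO in the gibberellin pathway. From 6 h to 3 d in CK 7 of their 8 genes tested were called lower, beside 4 of the 17 members and 9.18% of all probe sets, and the counts are descriptions that were not tested against each other. CYP76M5, among these 7, had group means of 70.2 in CK and 44.9 in LK at 6 h. At 3 d and 5 d its means were 22.7 to 29.5, under the lowest tested geometric mean of 32.2. It was tested because of its 6 h signal, so its fall is partly set by that filter. CYP71Z7, the member that fell most, lies beside CYP71Z6 in the same stretch of chromosome 2 as CYP76M8, with 2 protein-coding genes between CYP76M8 and CYP71Z6. CYP76M8 read 88.7, 96.7 and 125 in CK at 6 h and 56.9, 46.99 and 57.8 at 3 d, and was likewise called lower, with no overlap. Between LK and CK, 3 of the 8 were called lower and 0 higher at 3 d, and 2 lower and 0 higher at 5 d (5.75% and 12.8% of all probe sets were lower), while the members had 2 higher and 1 lower at 3 d and 2 higher and 3 lower at 5 d. The estimates of the 8 went both ways, called or not. At 6 h 0 of the 8 were called, beside 0.529% of all probe sets. Only 1 of the 8 was then positive, with a median log2 fold change of −0.65, while that of CYP71Z7 was −0.74. At 3 d 5 of the 8 were positive, with a median log2 fold change of 0.24. At 5 d 2 were positive, with a median of −0.14. Along the gibberellin pathway, CYP701A6 read 251, 268 and 273 in CK and 210, 206 and 217 in LK at 3 d. It was called lower (adjusted p = 0.014), while CYP88A5 was higher. CYP701A6 had 2 probe sets, both of the x_at type, of which only the strongest was read. At 5 d the groups of CYP701A6 overlapped and it was not called (log2 fold change −0.22, adjusted p = 0.068).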

How the data were processed

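The deposited values are linear signal intensities, 1 per probe set and array. The authors read the scans with GCOS 1.0 and normalized all 18 arrays together with dChip. Probe sets were joined to genes through the platform annotation: 22436 had 1 gene, 95 several and 34663 none. The members and lists were chosen with earlier results of these data known.

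A floor of 10 was set before taking log2, and of 57194 probe sets the strongest 44% by mean log2 value were tested, down to a geometric mean of 32.2. A model of all 6 groups was fitted with limma 3.58.1 in R 4.3.3, allowing for an intensity trend, with 12 residual degrees of freedom and 5.03 from the prior, and tested on simulated data. The number of arrays limits the precision. Named genes were, by rule, all called members whose arrays did not overlap, up to 4 members of each role, and called members of the time contrasts. Arrays were not paired by replicate number. Alternatives were other filters, scalings, floors, fits and probe sets, and leaving out each array.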

Additional observations from a re-analysis of the deposited data

How the results depend on the processing

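Of 15 called results of single members, 10 were called in the same direction under every alternative run; those of CYP707A5, CYP707A6 at 3 d, CYP724B1, CYP74A2 and CYP74A4 at 3 d were not. None of the 15 changed sign. Of 104 results that were not called, 39 changed the sign of their estimate under 1 or more alternatives, none of them called in either form. With only the top 30% of probe sets, 3 members were called at 5 d, and 3 without x_at and s_at probe sets; both settings drop CYP707A6 and CYP724B1. With a fold of 1.2 and an unadjusted p under 0.05, 2 were called at 6 h. With quantile normalization, 1 member differed in effect between 6 h and 3 d (CYP74A4). Leaving out 1 array at a time gave 0 to 0 members called at 6 h, 2 to 4 at 3 d and 4 to 6 at 5 d, 0 to 1 with an effect that differed between 6 h and 3 d (CYP707A6 without the second LK array of 6 h, CYP74A4 without the first CK array of 3 d), 0 to 0 between 3 d and 5 d, and 4 to 6 and 1 to 2 in CK from 6 h to 3 d and from 3 d to 5 d. Same-numbered CK and LK arrays deviated from their group means with correlations of −0.09 to 0.26, over 0.1 in 4 of 9 pairs, and those of different number over 0.1 in 3 of 18. Since this did not hold for every same-numbered pair, the arrays were not paired. With replicate numbers as a block within times, 0, 3 and 7 members were called at 6 h, 3 d and 5 d, and in CK 6 from 6 h to 3 d and 3 from 3 d to 5 d. The block added CYP707A5 (adjusted p = 0.041) and CYP87A3 (adjusted p = 0.028) at 5 d, and CYP707A5 and CYP88A5 in CK. Members near the background, such as CYP703A3, CYP71Z6 and CYP74A3, cannot be resolved on these arrays.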

Other observations

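The arrays numbered 3 were the highest of their group in 5 or more of 6 groups for 5 of the 17 members tested (CYP707A5, CYP734A4, CYP74A1, CYP74A2 and CYP87A3), against 3.77% of all 25165 probe sets. In 6 of 6 groups they were the highest for 371 probe sets (1.47%), among them CYP74A1 and CYP707A5. For 230 probe sets (0.914%) the array numbered 1 was also the lowest in 5 or more groups, and these 230 include both genes. These counts were made after the values had been seen, and the labels give the replicate numbers no meaning across groups.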
